A study of Ovis aries with 20 samples.

Results

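Cytosolic ribosomal protein genes were described in granulosa and theca cells of adult sheep, with and without exposure to testosterone before birth. They were taken by name as the rows that start RPL followed by a digit or P, RPS followed by a digit, or RPSA, and 10 names that start RPS6K, which belong to kinases, were left out. The rule gave 80 of 28524 genes. By their names 41 code for core proteins of the large (60S) subunit and 31 for core proteins of the small (40S) subunit. Another 5 are paralogs of large subunit proteins (RPL3L, RPL7L1, RPL22L1, RPL26L1 and RPL36AL), and RPS27L and RPS26_1 are a paralog and a second entry of small subunit proteins. RPS19BP1 shares the name pattern but codes for a protein that binds RPS19 and is no part of the ribosome. The label therefore does not hold for RPS19BP1. It is also loose for RPL7L1, a nucleolar relative of RPL7 that takes part in the assembly of the large subunit.

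A ribosome is built from ribosomal RNA and 1 copy of most of these proteins, so cells usually keep the messages of the core genes in near constant proportion. Many of these messages begin with a run of pyrimidines that lets mTOR signalling set how strongly they are translated. In the growing follicle granulosa cells divide and secrete fluid and hormones, and theca cells form a vascular, matrix-rich coat that makes androgen, so both layers depend on protein synthesis.

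Prenatal T animals were born to ewes injected with 100 mg of testosterone propionate (1.2 mg per kg), 2 times a week from day 30 to day 90 of gestation, and control animals to ewes injected with vehicle on the same schedule. The offspring of both groups were 21 months old, had received prostaglandin F2 alpha (10 mg, 2 injections 11 days apart) to bring oestrus together, and gave ovaries 18 h after the second injection. Antral follicles, several to an animal, were cut from frozen sections by laser microdissection into granulosa and theca cells, which were pooled for each animal and layer, and how many follicles went into a pool is unknown here. The 19 libraries, made from total RNA after removal of ribosomal RNA, were granulosa cells of 5 prenatal T sheep (209, 210, 230, 276 and 315) and 4 controls (224, 244, 246 and 268) and theca cells of the same 5 prenatal T sheep and 5 controls (the 4 named and sheep 139).

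Libraries held 12.7 to 26.0 M reads. Outside sheep 209 the layers followed their labels. The sum of 9 granulosa markers was 45234 to 122139 normalized counts in granulosa libraries and 15371 to 28871 in theca libraries, and that of 10 theca markers was 19071 to 79281 in granulosa libraries and 619074 to 896196 in theca libraries. Both libraries of prenatal T sheep 209 stood apart. They listed the granulosa genes AMH, FSHR and CYP19 and the theca gene CYP17A1 at 0, and the other markers of these 2 lists above 0. The granulosa markers of sheep 209 summed to 23521 in its granulosa and 16022 in its theca library. Its theca markers summed to 24815 in its granulosa and 433037 in its theca library. The sum of 9 epithelial markers was 92321 normalized counts in the granulosa library of sheep 209 and 197 to 4139 in the other 8, and 22527 in its theca library and 193 to 850 in the other 9. The sum of 6 immune cell markers was 15902 in the granulosa library of sheep 209 and 180 to 1917 in the other 8, and 17705 in its theca library and 641 to 2195 in the other 9. No epithelial or immune cell marker was at 0 in either library of sheep 209. Normalized counts of all genes summed to 18.5 M in the granulosa library of sheep 209 and to 14.5 to 15.5 M in the other 8. Its theca library summed to 19.7 M, and the other 9 to 15.0 to 16.0 M. Overlap between libraries was judged on these values and not with equal totals. Results are given with all libraries and without sheep 209, and the part that other cell types had in them was not tested.

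Ribosomal protein genes took a similar share of each library, apart from sheep 209. In granulosa cells the share of reads was 2.79, 6.89, 6.12, 5.94 and 4.77% in prenatal T sheep 209, 210, 230, 276 and 315, and 5.72, 4.95, 6.79 and 6.23% in controls 224, 244, 246 and 268. In theca cells it was 2.18, 7.01, 6.39, 6.38 and 6.03% in the same 5 prenatal T sheep, and 5.83, 6.15, 4.89, 7.33 and 6.10% in controls 139, 224, 244, 246 and 268. Sheep 209 was lowest in both layers, and with it left out the prenatal T and control ranges overlapped in both. In such bulk samples fewer cells of a type and less of these messages per cell cannot be told apart.

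The mean share was 5.30 ± 1.60% in prenatal T granulosa cells (SD, n = 5) and 5.92 ± 0.78% in control granulosa cells (n = 4), and 5.93 ± 0.88% in prenatal T granulosa cells without sheep 209 (n = 4). In theca cells it was 5.60 ± 1.94% after prenatal T and 6.06 ± 0.87% in controls (n = 5 each), and 6.45 ± 0.41% in prenatal T theca cells without sheep 209 (n = 4). The differences between prenatal T and control means were smaller than the SD of either group, with all libraries and without sheep 209. The share followed the animal more than the layer: sheep 246 and 210 were high in both layers and sheep 244 was among the lowest in both. Granulosa cells had the larger share in 3 of 9 animals with both layers (209, 244 and 268). The summed 60S core level was 1.46 to 1.58 times the summed 40S core level across all 19 libraries, and 1.47 times in both libraries of sheep 209.

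**Figure D1:**
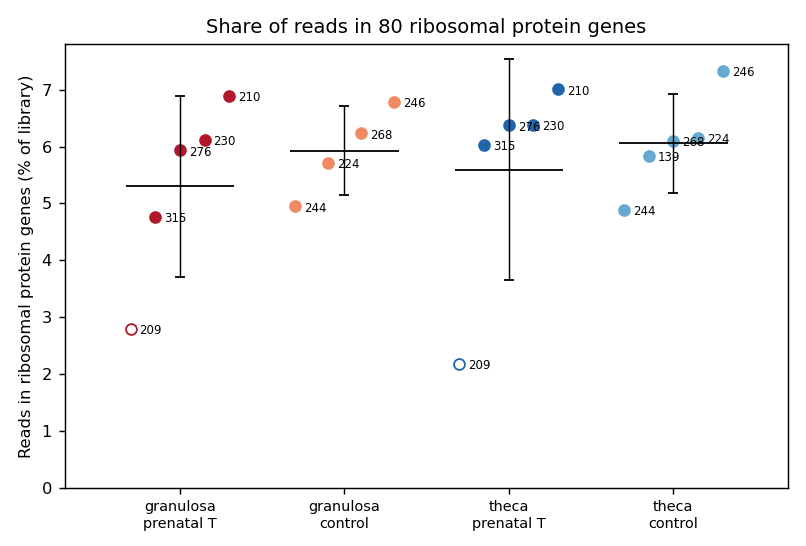
Share of reads in the 80 genes (y axis, % of library) in each library, by layer and treatment (x axis), numbered by sheep, with the group mean and SD as a line and bars. Open points mark sheep 209, at 2.79% in granulosa and 2.18% in theca cells, below all other libraries, which lie between 4.77 and 7.33%.

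The low share in sheep 209 was spread over nearly the whole ribosome. In its granulosa library 69 of 79 members lay below all 8 other granulosa libraries, among them 66 of 72 core members, where 34.3% of all genes tested did so. In its theca library 74 of 79 members lay below all 9 other theca libraries, and all 72 core members were among them, where 30.8% of all genes tested did so. Against the median of the other libraries the core members were lower by a median of 1.75 times in granulosa cells and of 2.28 times in theca cells.

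RPSA, which sits on the 40S subunit and is also known as a laminin receptor precursor, was down the least of the core members, by 1.25 times in granulosa and 1.63 times in theca cells. Some paralogs moved less. RPS27L had 886 normalized counts in granulosa cells of sheep 209, against 897 to 1164 in the other 8, and 621 in its theca cells, against 487 to 826 in the other 9. RPL7L1 was at 914 normalized counts in granulosa cells of sheep 209, within the range of 680.1 to 1033 in the others. RPL26L1 went with the core, at 446 normalized counts in granulosa cells of sheep 209, against 889 to 1357 in the other 8. RPS19BP1 was the only member above all other libraries of both layers in sheep 209, at 947 normalized counts in granulosa cells, against 421 to 606 in the others, and at 616 in theca cells, against 362 to 614. The theca margin was small, and the highest other library was that of control sheep 268. Normalized totals of these theca libraries were 19.7 M in sheep 209 and 15.8 M in sheep 268, and overlap was not judged with equal totals. Of all genes tested, 31.9% were above all other granulosa libraries in sheep 209 and 30.4% above all other theca libraries.

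**Figure D2:**
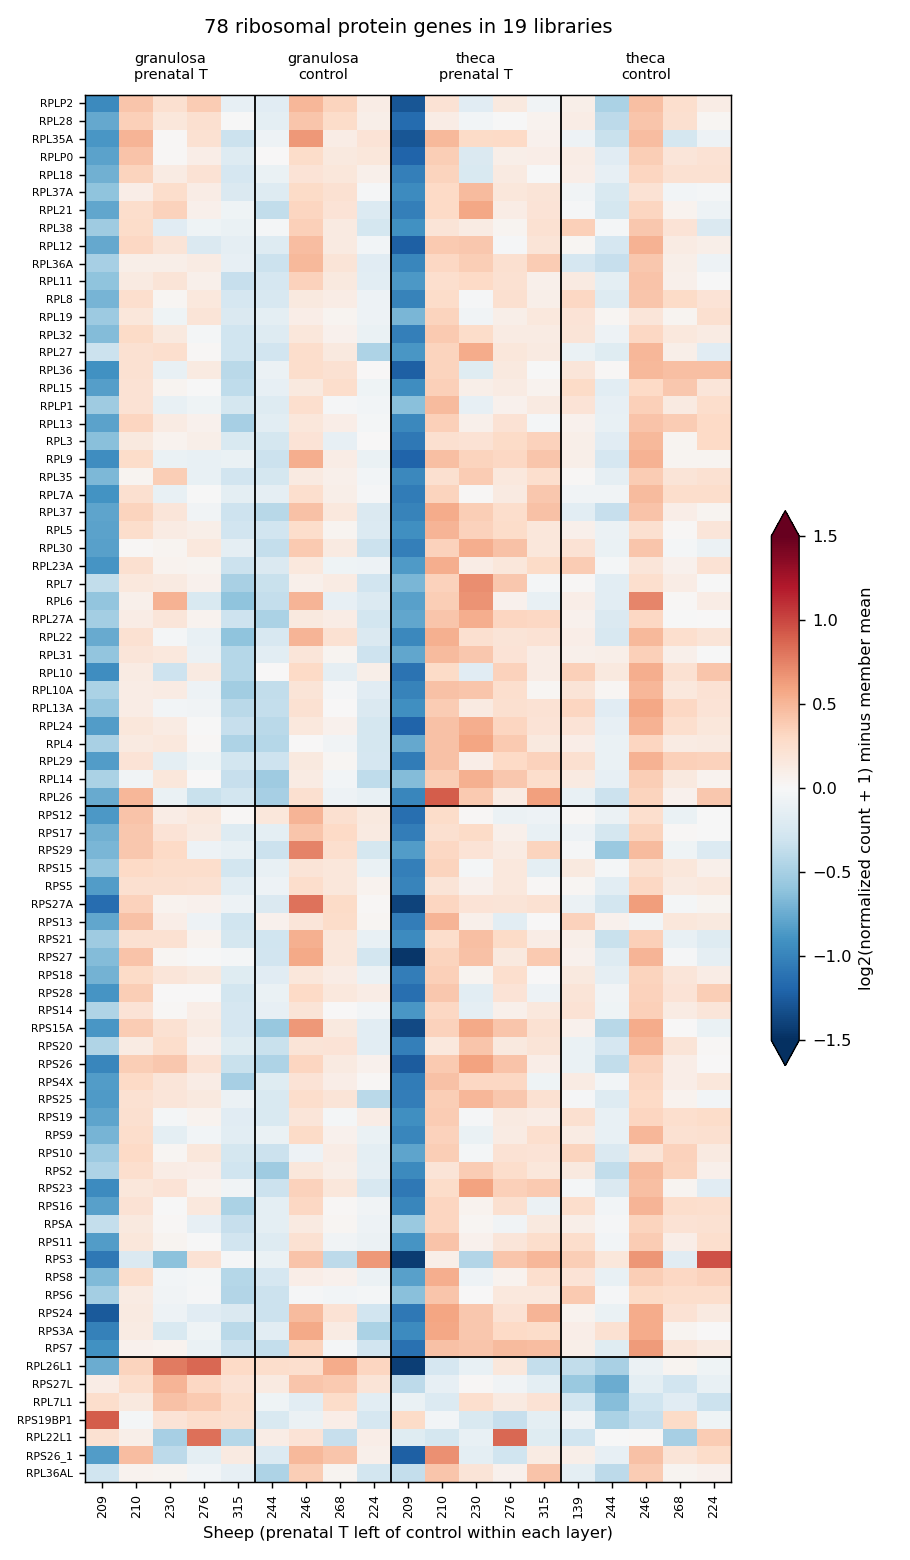
Colour shows, for each of 78 members (rows, 60S core at the top, then 40S core, then paralogs and others) and each library (columns, numbered by sheep), the log2 of the normalized count plus 1 minus the mean of that member. Sheep 209 forms a blue column in both layers, and RPL26L1, RPS27L and RPL7L1 are higher in granulosa than in theca columns.

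Between the layers of the same animals most core genes were somewhat lower in granulosa than in theca cells, and a few members, paralogs among them, were higher in granulosa cells. With the animal as a block, limma called 25 of 79 members (31.6%), where it called 56.6% of the 16269 genes tested. Of these 6 rose in granulosa cells (7.59%, against 28.6% of all genes) and 19 fell (24.1%, against 28% of all genes). The median log2 change of the members, granulosa minus theca, was -0.12 and that of all genes 0.02. By subunit, 2 of 41 core 60S genes rose and 13 fell (median -0.16), and 1 of 31 core 40S genes rose and 6 fell (median -0.12). With values scaled to equal totals in each library 9 members rose and 8 fell (33.6% of all genes up and 25.5% down), with a median of -0.06 for members and 0.08 for all genes, and without sheep 209 in the same scaling 8 rose and 29 fell (36.0% of all genes up and 28.3% down).

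Without sheep 209 more changes passed. limma then called 50 of 79 members (63.3%, against 62.7% of all genes tested), 5 up (31.7% of all genes) and 45 down (31% of all genes), with a median of -0.17. Among the 25 members called with all libraries, 24 were called in the same direction, and RPL28 was not. The number called was 16 (20.3%) when sheep 210 was left out, where 52.4% of all genes were called. The number that fell was 11 without sheep 210, 11 without sheep 224, 12 without sheep 276 and 11 without sheep 315, where 26.0, 26.3, 25.9 and 26.7% of all genes fell. Of the 72 core genes, 47 lay lower in granulosa cells in at least 7 of 9 animals, and 5 lay higher in at least 7. This was not counted over all genes or with equal totals, so it does not show that the core genes differ from other genes. Markers of endothelium also differed between layers: the sum of 7 was 1462 to 3940 normalized counts in granulosa and 11022 to 19144 in theca libraries without sheep 209, with all 7 lower in granulosa cells, and the part of such cells in the layer result was not tested.

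RPS12, a protein of the 40S head known in Drosophila for its part in cell competition, was the one core 40S gene that rose. It had a lowest, median and highest value of 3493, 7079 and 9014 normalized counts in granulosa cells and 2895, 6142 and 7635 in theca cells. The layers overlapped, and granulosa cells were higher in 9 of 9 animals (log2 change 0.21 ± 0.05, limma adjusted p = 0.00245). RPL28, a 60S protein, rose by 0.15 ± 0.06 (limma adjusted p = 0.0481) with all libraries and missed the threshold without sheep 209 (0.12 ± 0.05, adjusted p = 0.0742).

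The members that fell in granulosa cells came from both subunits. RPS7, a 40S protein needed for processing of ribosomal RNA, was at 8047, 15801, 15658, 14015 and 12037 normalized counts in granulosa cells of prenatal T sheep 209, 210, 230, 276 and 315 and at 12366, 11746, 19011 and 14798 in those of controls 224, 244, 246 and 268. In theca cells it was at 6917, 20336, 20113, 20926 and 20802 in the same prenatal T sheep and at 15965, 16469, 13309, 23436 and 17133 in controls 139, 224, 244, 246 and 268. The 4 prenatal T theca libraries other than sheep 209 lay close together and above all granulosa libraries, while the control values of the layers overlapped. RPS7 thus fell in granulosa cells, with a log2 change of -0.33 ± 0.09 (limma, adjusted p = 0.00898), and -0.40 ± 0.07 without sheep 209.

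RPS24, a 40S protein that is mutated in some families with Diamond-Blackfan anaemia, was lower in granulosa cells in 9 of 9 animals. Its lowest, median and highest values were 4956, 10476 and 16392 normalized counts in granulosa cells and 5638, 13765 and 17856 in theca cells, and the layers overlapped. The log2 change was -0.33 ± 0.08 (limma adjusted p = 0.00348). RPL23A, a 60S protein at the exit of the peptide tunnel, was the other core gene lower in 9 of 9 animals (-0.20 ± 0.07, adjusted p = 0.0278).

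RPL26, which lies beside the same exit, stood at 6453, 10117 and 15409 normalized counts (lowest, median, highest) in granulosa cells and at 5534, 12831 and 20484 in theca cells. The ranges overlapped, and the log2 change was -0.33 ± 0.10 (limma adjusted p = 0.0152). Other members that fell with an absolute log2 change of 0.25 or more were RPS3A (-0.33), RPL14 (-0.32), RPL29 (-0.31), the tunnel protein RPL4 (-0.30), RPL24 (-0.28), which bridges the subunits, RPL13A (-0.25) and RPS6 (-0.25), the classic target of S6 kinase. The SE of these changes was 0.07 to 0.09 and the adjusted p 0.00404 to 0.0293 (limma).

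**Figure D3:**
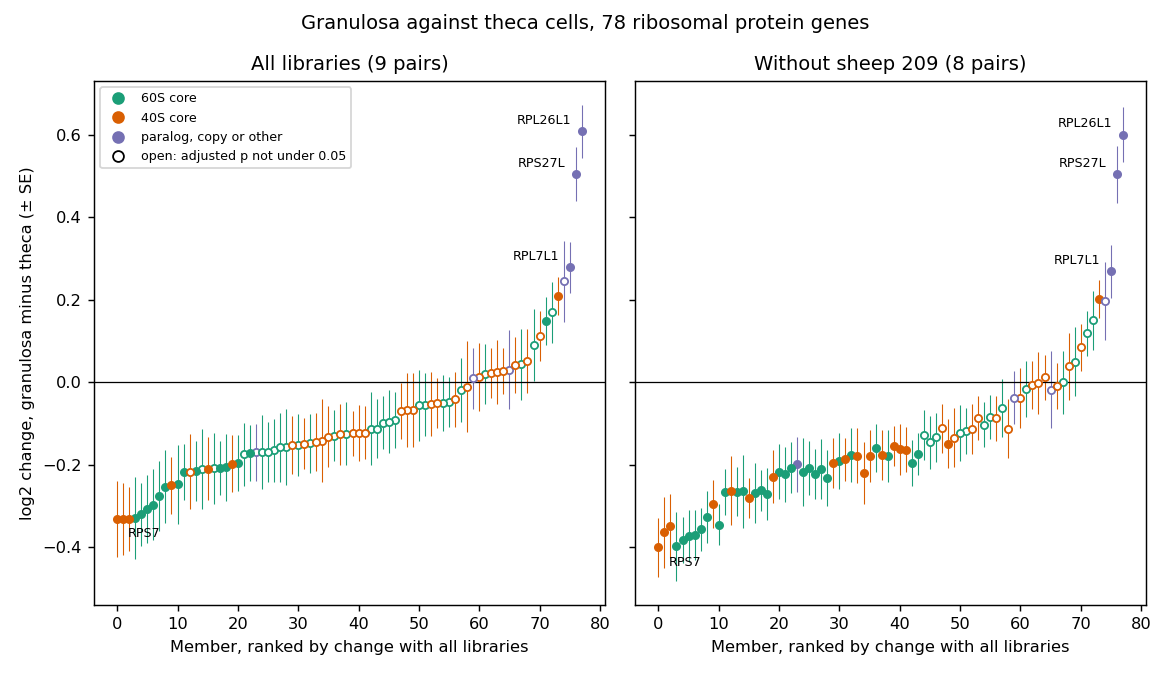
The log2 change of each of 78 members, granulosa minus theca (y axis, bars ± SE of limma), in order of the change with all libraries (x axis), with all libraries on the left and without sheep 209 on the right. Filled points passed an adjusted p of 0.05, and RPL26L1 and RPS27L stand above the other points, at 0.61 and 0.50 on the left.

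Paralogs made up 3 of the 6 members that rose. RPL26L1 is a close paralog of RPL26. Its normalized counts in granulosa cells were 446, 944, 1279, 1357 and 915 in prenatal T sheep 209, 210, 230, 276 and 315 and 934, 898, 889 and 1099 in controls 224, 244, 246 and 268. In theca cells they were 279.6, 625, 693, 843 and 585 in the same prenatal T sheep and 579.6, 715, 532, 704 and 766 in controls 139, 224, 244, 246 and 268. Every granulosa library but that of sheep 209 lay above every theca library. On the log2 scale it rose by 0.61 ± 0.06 (limma adjusted p = 1.41e-05), a 1.52-fold difference.

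RPS27L, a paralog of RPS27, was the single member whose layers did not overlap with all libraries, where 0.885% of all genes tested lay wholly higher in granulosa cells and 4.59% wholly lower. Its lowest granulosa library was that of sheep 209, with a normalized total of 18.5 M, against 15.0 M in its highest theca library, sheep 230. Overlap was not judged with equal totals. Granulosa cells had 886, 984, 1164, 1011 and 954 normalized counts in prenatal T sheep 209, 210, 230, 276 and 315 and 932, 897, 1093 and 1075 in controls 224, 244, 246 and 268. Theca cells had 621, 752, 826, 787 and 741 in the same prenatal T sheep and 555, 758, 487, 736 and 672 in controls 139, 224, 244, 246 and 268. It rose by 0.50 ± 0.07 on the log2 scale (limma adjusted p = 6.66e-05), a 1.42-fold difference. Without sheep 209 the layers of RPS27L and RPL26L1 did not overlap, where 5.65% of all genes tested were wholly higher in granulosa cells and 10.9% wholly lower.

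RPL7L1, a nucleolar relative of RPL7 that takes part in the assembly of the large subunit, rose in granulosa cells by 0.28 ± 0.06 (limma adjusted p = 0.00261), in 9 of 9 animals. RPL22L1, the paralog of RPL22, did not pass (0.03 ± 0.10), nor did RPL36AL, the paralog of RPL36A (-0.17 ± 0.07, adjusted p = 0.0568), which passed without sheep 209 (-0.20 ± 0.07, adjusted p = 0.0218). RPS26_1, the second entry of RPS26, a protein at the exit of the messenger, was at 0.01 ± 0.07, and RPS19BP1 just missed the threshold (0.24 ± 0.10, adjusted p = 0.0510).

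Set against its core partner in each library, RPL26L1 had 9.98 ± 3.09% of the normalized count of RPL26 in granulosa cells (SD, n = 9) and 5.21 ± 1.28% in theca cells (n = 10), and the granulosa value was higher in 9 of 9 animals. RPL7L1 had 16.8 ± 3.59% of the count of RPL7 in granulosa and 12.1 ± 3.60% in theca cells, higher in 9 of 9. RPS27L had 35.5 ± 7.18% of the count of RPS27 in granulosa and 25.4 ± 12.4% in theca cells, higher in 8 of 9. RPL22L1 had 3.85 ± 1.56% of the count of RPL22 in granulosa and 3.20 ± 1.32% in theca cells, also higher in 8 of 9, while RPL36AL against RPL36A was higher in 2 of 9. Without sheep 209, whose theca library was highest for RPS27L at 59.5%, the percentages in granulosa (n = 8) and theca cells (n = 9) were 33.9 ± 5.64 and 21.6 ± 3.52% for RPS27L and 10.4 ± 3.07 and 5.23 ± 1.35% for RPL26L1. They were 16.3 ± 3.38 and 11.2 ± 2.10% for RPL7L1, and 3.53 ± 1.32 and 2.93 ± 1.09% for RPL22L1. Gene lengths were not used, so these percentages can be compared between libraries and do not give the relative abundance of 2 genes. Near-identical copies can exchange reads, and the sources used here do not say how the authors' counting split them.

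**Figure D4:**
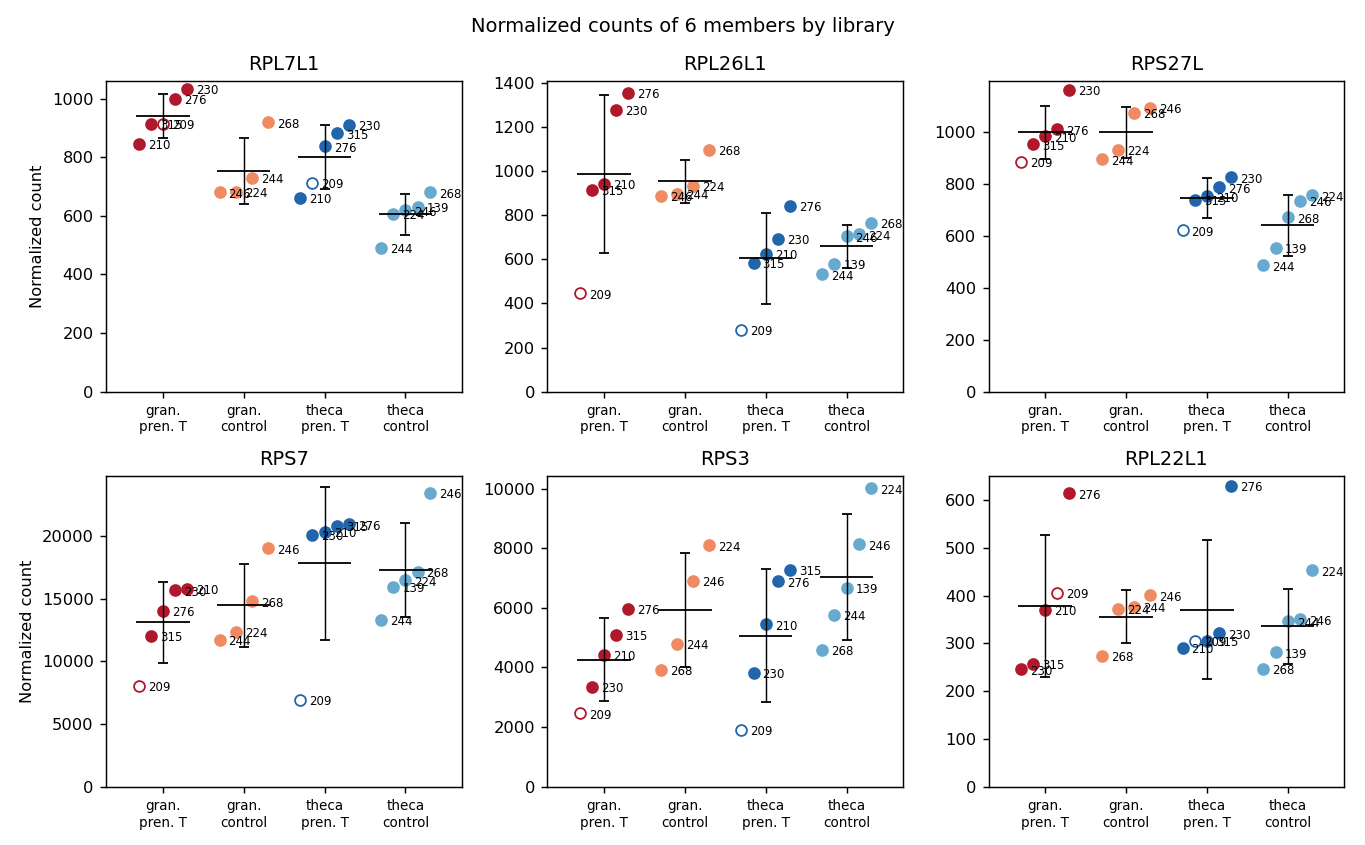
Normalized counts (y axis, from 0) of RPL7L1, RPL26L1, RPS27L, RPS7, RPS3 and RPL22L1 in each library, by layer and treatment (x axis), numbered by sheep, with the group mean and SD as a line and bars and open points for sheep 209. In these counts, which are not scaled to equal totals, RPS27L separates the layers without overlap (886 to 1164 in granulosa, 487 to 826 in theca cells). Sheep 276 stands high for RPL22L1 in both layers, and sheep 224 stands high for RPS3 in both layers.

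In granulosa cells prenatal T was not followed by a detectable change of any ribosomal protein gene. limma called 0 of 79 members and 0% of the 14724 genes tested (smallest adjusted p of a member 0.875), with 1 member at an unadjusted p under 0.05 (1.27%, against 4.22% of all genes). edgeR called 0 members with 2 at an unadjusted p under 0.05, and so did DESeq2, which called 16 genes in all. The median log2 change, prenatal T minus control, was -0.12 for members and -0.01 for all genes, with 67 of 79 members below 0. Without sheep 209 the median was 0.01 and 44 of 79 members lay above 0, so the lean below 0 was seen with that animal and not without it. With all libraries 0 members had prenatal T and control values that did not overlap, where 0.72% of all genes tested lay wholly above and 1.69% wholly below the controls. Without sheep 209 there were also 0, where 1.15% of all genes lay wholly above and 2.68% wholly below.

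The member of smallest p in granulosa cells was RPL7L1. It had 914, 846, 1033, 999 and 913 normalized counts in prenatal T sheep 209, 210, 230, 276 and 315, against 682, 729, 680.1 and 919 in controls 224, 244, 246 and 268. Control sheep 268 reached the prenatal T range, and the other 3 controls lay below all 5 prenatal T values. The log2 change was 0.33 ± 0.13 (limma adjusted p = 0.875) and 0.34 ± 0.13 without sheep 209 (adjusted p = 0.704).

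RPS19BP1 had 947, 493, 580.0, 606 and 597 normalized counts in prenatal T granulosa cells of sheep 209, 210, 230, 276 and 315, against 421, 431, 473 and 541 in control granulosa cells of sheep 224, 244, 246 and 268. The groups overlapped through sheep 210 and 268, and the change was 0.44 ± 0.19, or 0.29 ± 0.13 without sheep 209 (limma adjusted p = 0.875 and 0.712). The core member of smallest p was RPS3 (-0.49 ± 0.30, or -0.30 ± 0.25 without sheep 209). RPL10, RPL36, RPL22, RPS3A, RPS12, RPS13 and RPS26_1 followed in order of p, at -0.35 to -0.26 with SEs of 0.22 to 0.27. Without sheep 209 RPL26L1, RPS10, RPS25 and RPL21 came among the smallest p, at 0.16 to 0.22 with SEs of 0.15 to 0.17, and none of these members passed in limma. The theca markers in these granulosa libraries summed to 19071 to 38424 normalized counts in prenatal T sheep other than 209 and to 32297 to 79281 in controls, and the part of this in the changes was not tested.

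In theca cells no ribosomal protein gene changed detectably after prenatal T either. limma called 0 of 79 members and 0% of the 15492 genes tested (smallest adjusted p of a member 0.644), with 1 member at an unadjusted p under 0.05 (1.27%, against 7.69% of all genes). edgeR and DESeq2 each called 0 members, with 1 member at an unadjusted p under 0.05, and 0 and 7 genes in all. The median log2 change was -0.14 for members and 0.00 for all genes, with 56 of 79 members below 0, and 0 members were without overlap of prenatal T and control values, where 1.28% of all genes tested lay wholly above and 0.981% wholly below the controls. Without sheep 209 the median was 0.12, against -0.01 for all genes, with 54 of 79 members above 0. At an unadjusted p under 0.05 were then 13 members (16.5%, against 12.1% of all genes), of which 0 passed (smallest adjusted p 0.371 by limma, 0.349 by edgeR and 0.154 by DESeq2, which called 0, 0 and 58 genes in all).

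RPL7L1 again had the smallest p. Theca cells had 712, 661, 911, 838 and 882 normalized counts in prenatal T sheep 209, 210, 230, 276 and 315, against 630.4, 607, 490.1, 619 and 679 in controls 139, 224, 244, 246 and 268. Of the prenatal T sheep, 210 alone lay below the highest control, sheep 268. The log2 change was 0.40 ± 0.13 (limma adjusted p = 0.644) and 0.44 ± 0.13 without sheep 209 (adjusted p = 0.371).

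RPL27A, a 60S core protein, was the single member whose theca values did not overlap once sheep 209 was left out, where 2.5% of all genes tested lay wholly above and 2.07% wholly below the controls. It was at 7837, 18012, 19589.8, 16895 and 16714 normalized counts in prenatal T sheep 209, 210, 230, 276 and 315, against 14076, 13505, 11605, 16709 and 13459.5 in controls 139, 224, 244, 246 and 268. The gap was small, since sheep 315 lay just above control sheep 246. Their normalized totals were 16.0 and 15.5 M, and overlap was not judged with equal totals. The log2 change was 0.13 ± 0.24 with all libraries and 0.37 ± 0.12 without sheep 209 (limma adjusted p = 0.873 and 0.371).

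Among the other members of smallest p in theca cells without sheep 209 were RPS25, a 40S protein needed for some internal entry sites of viral RNA (0.36 ± 0.11), the zinc-binding 60S proteins RPL37 (0.40 ± 0.15) and RPL37A (0.31 ± 0.11), RPS23 of the decoding centre (0.39 ± 0.14) and RPS26 (0.39 ± 0.15). With sheep 209 the changes of these 5 were 0.06 to 0.11, each smaller than its SE. Lower values in prenatal T theca cells were those of RPL36 (-0.50 ± 0.26, or -0.24 ± 0.14 without sheep 209), RPL10, the last protein to join the 60S subunit (-0.44 ± 0.25, or -0.20 ± 0.13), and RPS3 (-0.57 ± 0.36, or -0.26 ± 0.24). These 3 kept their direction in both layers with and without sheep 209, and none passed in limma. The 40S proteins RPS28, RPS16 and RPS14, the 60S protein RPL18 and RPS26_1 were at -0.37 to -0.26 in prenatal T theca cells with SEs of 0.21 to 0.29, and RPS27L at 0.23 ± 0.15.

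**Figure D5:**
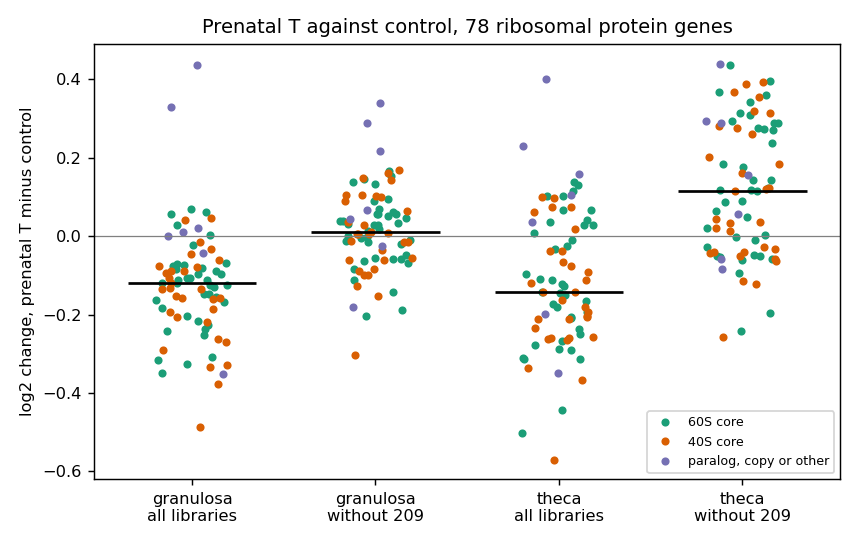
The log2 change of each of 78 members, prenatal T minus control (y axis), in granulosa and theca cells with all libraries and without sheep 209 (x axis), coloured by class, with the median over all 79 tested as a line. The median is -0.12 with all libraries and 0.01 without sheep 209 in granulosa cells, and -0.14 and 0.12 in theca cells, and RPL7L1 is above 0 in all 4 columns.

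The effects of prenatal T in the layers were not shown to differ. The test of the difference (granulosa effect minus theca effect) called 0 of 79 members and 0% of 16269 genes by limma (smallest adjusted p of a member 0.96), with 1 member at an unadjusted p under 0.05 (1.27%, against 4.66% of all genes). edgeR and DESeq2 called 0 members, with 2 and 1 at an unadjusted p under 0.05, and 0 and 18 genes in all. Without sheep 209, 10 members were at an unadjusted p under 0.05 (12.7%, against 8.28% of all genes) and 0 passed (smallest adjusted p 0.489). The smallest p without sheep 209 was that of RPL35A, a 60S protein mutated in some families with Diamond-Blackfan anaemia. Its change was -0.11 ± 0.21 in granulosa and 0.34 ± 0.16 in theca cells without sheep 209, a difference of -0.45 ± 0.11 (limma adjusted p = 0.489), against -0.33 ± 0.15 with all libraries. RPS21 and RPL9 followed, both at -0.36 ± 0.10 without sheep 209. With all libraries the smallest p was that of RPS19BP1, at 0.38 ± 0.17 (limma adjusted p = 0.96). The layer effect, fitted within each treatment, called 4 members up and 2 down in prenatal T sheep, against 33.8% of all genes (16.6% up and 17.2% down), and 6 up and 15 down in controls, against 47.5% of all genes (23.6% up and 23.9% down). These fits were not planned. Sheep 209 is in the prenatal T fit, which was not run without it, so the counts do not compare the layer effect between treatments.

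The core genes varied mostly with the animal, as did genes of like level. The SD of the log2 values of a core member over 19 libraries had a median of 0.37, against 0.57 over all genes tested, and of 0.24 without sheep 209, against 0.45 for all genes. Genes at least as high as the lowest core gene had median SDs of 0.38 with all libraries and 0.30 without sheep 209. Of the squared deviations left after the layer means, the means of the animals over both layers held 92.4% for the median core member (all genes 81.9%, genes at least as high 86.8%). Without sheep 209 they held 86.5% (all genes 75.9%, genes at least as high 82.9%). This share is large even where the libraries of an animal are unrelated, so it is not the part due to animals. Any difference between prenatal T and control animals also counts in it. The steadiest members over all libraries were RPSA, RPL19 and RPL36AL, with SDs of 0.23, 0.26 and 0.28 on the log2 scale. Animals here stand for 1 sample in each layer, so this share includes whatever was common to the handling of an ovary.

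Relative to the median member of the same library, among the most variable members were RPS19BP1, RPL22L1, RPL7L1, RPL26L1, RPS27L and the core gene RPS3, with an SD of 0.44 to 0.58 on the log2 scale. Without sheep 209 this SD was 0.30 for RPS19BP1 and 0.38 to 0.47 for the others named. RPS3 lies at the entry of the messenger and also acts in DNA repair. RPS3 had 2459, 4430.5, 3355, 5966 and 5106 normalized counts in granulosa cells of prenatal T sheep 209, 210, 230, 276 and 315, against 8101, 4798, 6903 and 3924 in controls 224, 244, 246 and 268. In theca cells it had 1916, 5455, 3813, 6885 and 7274 in the same prenatal T sheep, against 6666, 10011, 5777, 8127 and 4595 in controls 139, 224, 244, 246 and 268. Sheep 224 was highest and sheep 209 and 230 lowest in both layers, with the groups overlapping in both.

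RPL22L1 had 406, 370.4, 246, 614 and 257 normalized counts in granulosa cells of prenatal T sheep 209, 210, 230, 276 and 315, against 372, 376, 401 and 274 in controls 224, 244, 246 and 268. In theca cells it had 305, 290.3, 321, 629.7 and 306 in the same prenatal T sheep, against 281, 453, 346, 351 and 246 in controls 139, 224, 244, 246 and 268. Sheep 276 was highest in both layers and the groups overlapped. As a percentage of RPL22, the paralog stood at 6.40 and 6.22% in granulosa cells of sheep 209 and 276 and at 5.57 and 5.18% in their theca cells, and at 1.87 to 4.17% in all other libraries.

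RPL3L, the striated muscle paralog of RPL3, did not pass the low-value filter, at 0 to 8.03 normalized counts in the 19 libraries. The other 79 members passed it in every comparison. Core proteins RPL17, RPL23, RPL34, RPL39 and RPL41 were not among the rows that the name rule matched. RefSeq now gives the names RPL23 and RPL34 to rows under numbered identifiers, with means of 1077 and 14.3 normalized counts. These rows were not analysed here. RACK1 and FAU, which are ribosomal by function and not by name, were looked at beside the members. RACK1, a scaffold on the 40S head, fell in granulosa cells (median 20386 normalized counts, against 26833 in theca cells, log2 change -0.33 ± 0.10, limma adjusted p = 0.0124). FAU, which makes a ribosomal protein fused to a ubiquitin-like protein, was at -0.01 ± 0.09.

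Genes that assemble ribosomes were mostly higher in granulosa than in theca cells. Of 42 genes of ribosome biogenesis 31 rose in granulosa cells and 1, SBDS, fell, with a median log2 change of 0.29, where 28.6% of all genes tested rose and 28% fell. RRP12, needed for export of the pre-ribosome, rose by 0.62 ± 0.10 (limma adjusted p = 0.000215), NOLC1, a nucleolar phosphoprotein, by 0.59 ± 0.09 (0.000145), GNL2, a nucleolar GTPase, by 0.44 ± 0.06 (7.3e-05) and PES1, of the PeBoW complex, by 0.41 ± 0.06 (0.000103). Of 13 tested genes of RNA polymerase I and its factors 6 rose and 0 fell (median 0.15), among them TAF1B (0.62), TTF1 (0.37), POLR1A (0.36) and POLR1B (0.35). At an unadjusted p under 0.05 in this list were the same 6 genes that passed.

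Of 10 chaperones and importers of ribosomal proteins 5 rose and 2 fell (median 0.13), with GRWD1, the chaperone of RPL3, at 0.58 ± 0.08 (limma adjusted p = 9.52e-05), the importer TNPO1 at 0.33 ± 0.06 (0.000392) and HEATR3, an importer of RPL5, at 0.25 ± 0.07 (0.0108). NAP1L1 fell (-0.26 ± 0.05, 0.00145), and with NACA and TSR2 it belongs to 2 of the lists. Of 20 elongation factors and other genes whose messages start with a pyrimidine tract 3 rose and 10 fell (median -0.19). EEF1B2 fell by 0.32 ± 0.06 on the log2 scale (limma adjusted p = 0.000776), while HNRNPA1 (0.38 ± 0.06, 0.000175) and EIF3A (0.28 ± 0.06, 0.00146) rose. Of 18 genes of mTOR signalling and of regulators of such messages 8 rose and 2 fell (median 0.13). Beside these, as beside the lists above, 28.6% of all genes tested rose and 28% fell. EIF4EBP1, the repressor of cap-dependent translation that mTOR inactivates, rose by 1.12 ± 0.12 (limma adjusted p = 2.08e-05), MTOR by 0.47 ± 0.06 (4.0e-05) and RPTOR by 0.33 ± 0.06 (0.00113), and TSC2, an inhibitor of mTOR, fell (-0.21 ± 0.05, 0.00217).

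After prenatal T, 0 genes of these lists passed in either layer by limma. In granulosa cells 35 of 42 biogenesis genes lay above 0 (median 0.12, all genes -0.01), and 30 of 42 in theca cells (median 0.12, all genes 0.00). Without sheep 209 it was 38 of 42 in granulosa cells (median 0.19) and 29 of 42 in theca cells (median 0.10), and 0 genes of the lists passed. The values of smallest p were those of NMD3, the export adapter of the 60S subunit, at 0.57 ± 0.16 in granulosa and 0.78 ± 0.17 in theca cells (limma adjusted p = 0.875 and 0.644), with WDR12 at 0.47 ± 0.17 in granulosa and NOP16 at 0.42 ± 0.13 in theca cells. TSC2 had -0.33 ± 0.13 in granulosa and -0.39 ± 0.13 in theca cells, TSC1 -0.33 ± 0.14 and -0.28 ± 0.12, and EIF4E, the cap-binding protein, 0.33 ± 0.15 and 0.60 ± 0.17 (limma adjusted p = 0.875 in granulosa and 0.644 in theca cells for each).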

How the data were processed

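The authors deposited a table of gene counts divided by a size factor for each library, a signal on the scale of reads. The submitters' processing notes name STAR 2.6.0c, Subread 1.6.1 with featureCounts, DESeq2, MultiQC 0.9 and FastQC 0.11.5, and the genome build and counting settings are not given in the sources used here. All values came out as whole reads (100%, tolerance 1e-06) when divided by the step of their library, and depth was taken from these reads. RefSeq names of the sheep assembly ARS-UI_Ramb_v3.0 matched 78 of 80 members by symbol (not RPL26 and RPS26_1). RefSeq lists RPS28 there as a long non-coding RNA, and RPS28 was kept among the core genes by its name. The 0 columns of values that belong to no sample needed no removal.

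Log2 of the deposited value plus a pseudocount of 1 was tested with limma 3.58.1 in R 4.3.3, two-sided, on genes at 10 or more in at least 5 libraries of a comparison, with Benjamini-Hochberg adjustment over all genes tested and a threshold of 0.05. A fold change on this scale understates that of low genes. Prenatal T was compared with control within each layer, and layers, and the difference of the effects, were compared with the animal as a block. Same-numbered libraries came from the same animal, and their deviations from the group means correlated with r of 0.42 to 0.80 across genes. edgeR 4.0.16 and DESeq2 1.42.0 on the recovered reads were alternatives. Fits were tested on simulated data. No 2 libraries of a group held the same reads (smallest chi-square per degree of freedom 25.9 over 36 pairs).

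Members and lists were chosen with earlier results of these data known. The rule for naming took, with and without sheep 209, up to 10 called members in each direction by size of change, or the 10 of smallest p, with all paralogs, the 3 of largest and 3 of smallest SD, members with a library far from its group, and from each list up to 4 called genes or the 2 of smallest p (48 members and 89 genes in all), and some of these are not reported here. The granulosa library of control sheep 139 (of 20 planned libraries, 19 were used) and sequences at the start sites were not analysed here. Replicates are animals, so SDs within a layer and SEs of prenatal T changes carry the spread between animals. With the animal as a block, SEs of layer changes and of differences of effects carry the spread of the differences within animals.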

Additional observations from a re-analysis of the deposited data

Results flagged for a closer look

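A library was looked at again where the gap between it and its nearest neighbour made up most of the range of its group, by Dixon's test. Chance alone marks some groups in a set of this size, and the groups are small.

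In prenatal T theca cells sheep 209 stood apart for the summed share of reads in ribosomal protein genes, where the gap made up 0.797 of the range of the group. It did so for RPS7 (0.942), RPS27A, which codes for a fusion with ubiquitin (0.881), and RPL27A (0.755), each time as the lowest library. Over all members sheep 209 was marked for 20 in prenatal T theca cells. In prenatal T granulosa cells it was marked for 1, RPS19BP1, as the highest library (0.751). The rule was run on members only, so whether these counts differ from the share among all genes is unknown.

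In prenatal T theca cells sheep 276 stood apart as the highest for RPL22L1 (0.909), and its granulosa library was also the highest of its group. In control granulosa cells sheep 244 stood apart as the lowest for RPS6, at 5752 normalized counts, against 7013, 7080 and 6980 in sheep 224, 246 and 268 (0.925).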

How the results depend on the processing

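The layer counts moved most. Against 25 members called, 3 were called with no replicate block (3 up and 0 down, 5 members at an unadjusted p under 0.05 in limma, 36.5% of all genes called), and 12 fell with a random replicate block (28.1% of all genes), against 19 with the animal as a fixed block. Called members numbered 45 by edgeR and 53 by DESeq2 without sheep 209, with 37 and 47 down (62.6 and 62.3% of all genes called, 29.1 and 30.8% down). They numbered 16 to 50 (11 to 45 down) when each animal was left out, where 52.0 to 62.7% of all genes were called. With equal totals 8 fell (25.5% of all genes), or 29 (28.3%) without sheep 209, a setting chosen after seeing the data. With core genes alone 3 rose. After prenatal T the replicate block changed no call: 0 members passed in either layer by limma. The median SD of core members was 0.24 without sheep 209.

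Single changes after prenatal T that turned sign were smaller than their SE with all libraries. In granulosa cells RPL21 was at 0.026 by edgeR and 0.019 by DESeq2, at 0.17 and 0.18 by these tools without sheep 209, and at 0.16 with equal totals without it. RPL26L1 was at 0.072, 0.066, 0.26, 0.26 and 0.21 under the same 5 settings, and RPS25 at 0.016, 0.0088, 0.17, 0.17 and 0.15. RPS10 was at -0.020 with equal totals. With each animal left out in granulosa cells, RPL21 ran from -0.14 to 0.16, RPL26L1 from -0.18 to 0.22, RPS10 from -0.043 to 0.17 and RPS25 from -0.15 to 0.16. In theca cells RPL14 ran from -0.020 to 0.28, RPL26 from -0.035 to 0.44, RPL37A from -0.041 to 0.31, RPS23 from -0.025 to 0.39, RPS25 from -0.027 to 0.36 and RPS26 from -0.076 to 0.39. The cause was not tested. Of the other values, 329 for main results stayed close in size, a count by its ratio to the main count and a median or mean by less than an SD. That rule does not look at direction, and the medians of the members after prenatal T changed sign without sheep 209. For single genes 1176 values kept their direction and side of the threshold, and 43 lost their call. The start-site alternatives were not run.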
